A study of Mus musculus with 6 samples.

Results

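The 10 genes described here encode the machinery that displays peptides to T cells on molecules of the major histocompatibility complex (MHC). They were taken by symbol from the deposited count table, in which all 10 were found among 45703 genes. The class I genes, 6 of the 10, are the heavy chains H2-K1 and H2-D1, the light chain B2m, the transporter subunits Tap1 and Tap2, and Tapbp, which encodes tapasin. The other 4 belong to class II: H2-Aa and H2-Ab1, which encode the chains of the I-A molecule, H2-Eb1, which encodes the beta chain of I-E, and Cd74, which encodes the invariant chain. The samples were 6 primary cultures made from dorsal root ganglia (DRG), which hold the cell bodies of sensory neurons, with their glia, beside the spinal cord. The ganglia came from adult wild-type C57BL/6 mice aged 4 to 6 weeks, and the cells were grown for 7 days in DMEM/F12 medium containing 10% serum and the growth factors EGF and FGF, each at 10 ng/ml. All 6 cultures formed a single untreated group and each pooled 2 dishes, so no comparison between conditions was possible. The labels call them biological replicates without naming the animals behind each, so the p-values refer to these samples. Those for variation between cultures compare the spread of the samples with counting noise.

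Class I molecules sit on most nucleated cells and present peptides cut from cytosolic proteins. The TAP transporter carries those peptides into the endoplasmic reticulum, where tapasin helps to load them onto a heavy chain paired with beta-2-microglobulin. Class II molecules present peptides from endosomes and are made mainly by dendritic cells, macrophages and B cells. The invariant chain guides newly made class II molecules to the endosome. In peripheral nerve and ganglia, class II is known chiefly from resident macrophages, and both classes respond to interferon gamma, a cytokine of T and NK cells. The coactivator NLRC5 drives class I transcription and its relative CIITA drives class II transcription, and both act on a shared promoter arrangement of an X box and a Y box.

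That arrangement can be read in the promoters of these genes, and its matches are shown because it is common to class I and class II members whose transcript levels were far apart. RefSeq promoter windows (GRCm38.p6), from 250 bases before to 50 bases after an annotated start, were held for 7 of the 10 members, and the first of 2 windows was used for H2-K1. H2-Ab1, Tap2 and Cd74 had no entry. The start of the H2-K1 window used lies inside the annotated gene, which spans 33996012 to 34000619 on the minus strand. The searched pattern was TGANG, the core of the X2 part of the X box, followed after 19 to 21 bases by ATTGG, the core of the Y box, on either strand. It matched in 5 of the 7 members, all on the gene's own strand, and in 0.947% of all 32851 windows. The pattern and its spacing were chosen after these sequences had been read. In the lines that follow, capitals mark the TGANG and ATTGG parts.
H2-K1: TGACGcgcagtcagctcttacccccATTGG
H2-D1: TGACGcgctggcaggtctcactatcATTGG
B2m: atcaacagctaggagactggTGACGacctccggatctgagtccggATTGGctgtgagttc
H2-Aa: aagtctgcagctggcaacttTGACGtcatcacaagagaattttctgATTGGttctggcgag
H2-Eb1: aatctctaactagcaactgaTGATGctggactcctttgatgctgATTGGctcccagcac
These stretches lie on chr17:34000359-34000388 (minus strand) for H2-K1, chr17:35262993-35263022 (plus strand) for H2-D1 and chr2:122147589-122147648 (plus strand) for B2m. Those of H2-Aa and H2-Eb1 lie on chr17:34287857-34287917 (minus strand) and chr17:34305764-34305822 (plus strand). The gap between the parts was 20 bases in H2-K1, H2-D1 and B2m, 21 in H2-Aa and 19 in H2-Eb1. A gap of 15 to 25 bases matched 2.79% of all windows and the same number of members.

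Tap1 and Tapbp held ATTGG but not the pair, and ATTGG alone was found in 37.4% of all windows. H2-K1 and H2-D1 also shared an upstream stretch that joins a kappaB element, the binding sequence of NF-kappaB factors, with an interferon-stimulated response element (ISRE). Capitals mark GGGGATTCCCC, which was taken from the H2-K1 window, and the reverse complement of GAANNGAAA.
H2-K1: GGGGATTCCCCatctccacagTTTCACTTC
H2-D1: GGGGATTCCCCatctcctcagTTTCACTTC
They lie on chr17:34000429-34000458 (minus strand) and chr17:35262923-35262952 (plus strand). The H2-K1 stretch, like its X2-Y pair, precedes the start of the window used but lies inside the annotated gene. GGGGATTCCCC was found in 0.0304% of all windows and GAANNGAAA in 7.52%, each counted on both strands. The B2m promoter carried a longer form, GAAA, any 2 bases and GAAA, found in 3.44% of windows, on chr2:122147538-122147567 (plus strand), where capitals mark the match.
B2m: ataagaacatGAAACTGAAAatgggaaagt
Among the pathway genes described further on, 64 had a promoter window, and the X2-Y pair matched in H2-Q7, H2-M3, H2-DMb1, H2-DMb2 and Ifna4. GGGGATTCCCC matched in 1 of the 64, the heavy chain gene H2-Q6. GAANNGAAA matched in 15, among them the heavy chain genes H2-Q4, H2-Q6, H2-Q7, H2-Q10, H2-M2 and H2-M3. The others of the 15 were Psme1, Ctss, Irf2, Ifng, Ifnb1, Stat2, Isg15, Gbp7 and Igtp. The longer form matched in 19 of the 64. Most were interferon-stimulated genes, such as Ifit1, Ifit3, Isg15, Rsad2, Gbp2 and Cxcl10, and the heavy chain genes among them were H2-T22 and H2-T23. A match describes letters and does not show that a factor was bound.

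**Figure D1:**
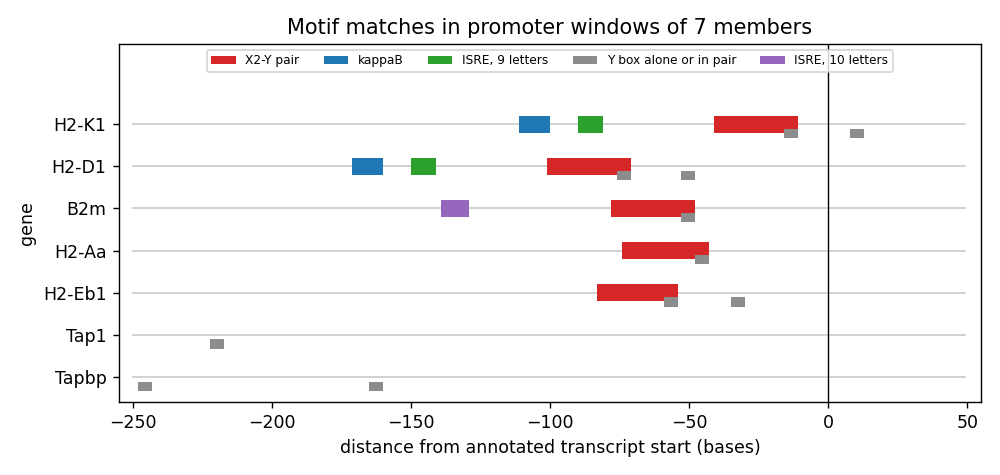
Matches in the promoter windows of 7 members, with the distance from the annotated start in bases on the horizontal axis and 1 row per gene; bars span the matched letters. The X2-Y pair lies before the start of the window used in H2-K1, H2-D1, B2m, H2-Aa and H2-Eb1, and is not matched in Tap1 or Tapbp. In H2-K1 that start lies inside the annotated gene.

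The cultures held transcripts of every class I member and very few of class II. Levels are given as CPM, the counts of a gene per 1000000 counts of its library, and, where different genes are compared, as CPM per kilobase of combined exon length (CPM per kb). Library totals ran from 20070639 to 22968642 counts. The 6 class I genes together took 832 ± 80.0 CPM (SD, n = 6), from 738 in culture 1 to 940.4 in culture 6. The 4 class II genes together took 0.791 ± 0.412 CPM (SD, n = 6), from 0.228 in culture 2 to 1.15 in culture 6.

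Marker genes of the labelled tissue were present: 6 glial lineage markers summed to 4346 to 6396 CPM per culture and 6 neuron markers to 864 to 1817. Fibroblast markers summed to 3338 to 13967 CPM and endothelial markers to 8.32 to 119 CPM, both highest in culture 5. Macrophage markers, 14 genes, summed to 23.9 to 252 CPM, with cultures 3, 4 and 5 between 184 and 252 and cultures 1, 2 and 6 between 23.9 and 62.6. Dendritic cell markers, 7 genes, summed to 7.33 to 16.02 CPM. The 5 B cell markers summed to at most 0.473 CPM, with Ms4a1 at 0, and the 6 T and NK cell markers to at most 0.498 CPM, with Cd3d and Ncr1 at 0. These are bulk samples, in which fewer cells of a type and less RNA per cell cannot be told apart.

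B2m (chromosome 2, 122147687 to 122153082), whose product pairs with every classical heavy chain, had the highest level of the 10. Its CPM was 405, 441, 454, 456, 432 and 470.0 in cultures 1 to 6. The values lay close together, and the highest was 1.16 times the lowest. Per length it reached 516 ± 26.6 CPM per kb (SD, n = 6), above 99.8% of the 14998 genes that passed the filter on low counts.

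H2-D1 (chromosome 17, 35263094 to 35267497) encodes the classical heavy chain of the D region. Its CPM was 106, 138, 144, 140.4, 113 and 145 in cultures 1 to 6, with a mean of 75.4 ± 9.80 CPM per kb (SD, n = 6). Cultures 1 and 5 were lowest and the other 4 lay within a narrow band. H2-K1 (chromosome 17, 33996012 to 34000619) encodes the heavy chain of the K region. It was measured at 95.3, 130.0, 122, 121, 87.2 and 151 CPM, with a mean of 47.9 ± 9.49 CPM per kb (SD, n = 6). Culture 5 was again among the lowest and culture 6 was highest, 1.73 times the level of culture 5.

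Heavy chains of the MHC resemble one another, which bears on these counts. Counts of H2-K1 and H2-D1 were fractional in all 6 cultures, and how reads that match several genes were counted is not given in the sources used here. In GENCODE M21 transcripts, 8.79% of the 50-base windows of H2-K1 and 14.3% of those of H2-D1 also occurred, letter for letter, in a transcript of another gene. Their levels are therefore less certain than those of B2m, which shared no window and was fractional in 1 culture. Tapbp was fractional in all 6 cultures, with 2.00% of its windows shared.

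Tapbp (chromosome 17, 33919478 to 33929290) was measured at 89.7, 113, 79.3, 82.9, 68.9 and 114 CPM in cultures 1 to 6. Cultures 2 and 6 stood at the top and culture 5 at the bottom. The transporter subunits were lower. Tap2 (chromosome 17, 34204479 to 34216321) had 29.3, 38.3, 33.8, 33.8, 24.2 and 39.4 CPM, with the same high and low cultures. Tap1 (chromosome 17, 34187556 to 34197225) had 12.6, 18.1, 16.7, 15.3, 14.02 and 21.04 CPM, with its lowest value in culture 1. Although both subunits form 1 transporter, Tap2 averaged 13.3 ± 2.29 and Tap1 5.52 ± 1.03 CPM per kb (SD, n = 6). Tap1 ranked above only 43.2% of the filtered genes per length, below their median of 7.20 CPM per kb.

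The class II genes were at the limit of what this depth can count. H2-Aa (chromosome 17, 34282744 to 34287823), the alpha chain of I-A, had 1 count in culture 3, 1 in culture 6 and 0 in the other 4. Its partner H2-Ab1 (chromosome 17, 34263227 to 34269418) had 3, 3, 6, 12, 12 and 6 counts in cultures 1 to 6. Cultures 4 and 5 were highest and cultures 1 and 2 lowest. H2-Eb1 (chromosome 17, 34305867 to 34316674) had 2, 1, 8, 6, 1 and 10 counts, so that culture 5, high for H2-Ab1, was among the lowest here. Cd74 (chromosome 18, 60803849 to 60812652) had 2, 1, 6, 4, 8 and 7 counts.

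Summed over the 6 cultures, H2-Aa had 2 counts (95% exact Poisson interval 0.242 to 7.22) and H2-Ab1 had 42 (30.3 to 56.8). H2-Eb1 and Cd74 had 28 each (18.6 to 40.5). These intervals cover counting error only, since the libraries were amplified by PCR and reads without molecular identifiers are not independent molecules. Mean levels were 0.0139 ± 0.0215 CPM per kb for H2-Aa, 0.280 ± 0.173 for H2-Ab1, 0.132 ± 0.111 for H2-Eb1 and 0.156 ± 0.0955 for Cd74 (SD, n = 6). Counts of all 4 were whole numbers and their transcripts shared no 50-base window with another gene. Per length and over all cultures, H2-K1 was 311 times as abundant as Cd74 (95% counting interval 215 to 468) and 175 times as abundant as H2-Ab1 (129 to 242). The intervals of these ratios do not cover the spread between cultures either.

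**Figure D2:**
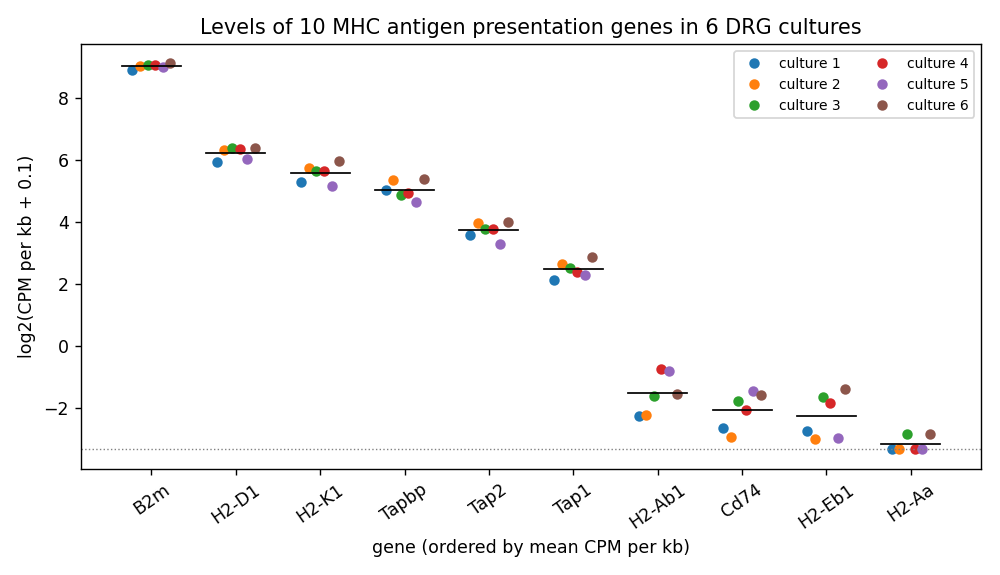
Level of each member in each of the 6 cultures, as log2(CPM per kb + 0.1) on the vertical axis; points are cultures, black lines are means and the dotted line is a count of 0. The 6 class I genes lie above 2 on this axis in every culture, and the 4 class II genes lie below 0.

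In the order of mean level per length, B2m came first, then H2-D1, H2-K1, Tapbp, Tap2, Tap1, H2-Ab1, Cd74, H2-Eb1 and H2-Aa. Each gene was compared with the next within libraries, as a difference of log2(CPM per kb + 0.1), and the 6 differences were tested with an exact permutation test that flips their signs (two-sided). Of the 9 neighbouring pairs, 8 had the same order in all 6 cultures (exact permutation p = 0.0312 each, the smallest 6 cultures can give, adjusted p = 0.0352 over the 9 pairs). The difference was 2.78 ± 0.131 between B2m and H2-D1, 0.67 ± 0.147 between H2-D1 and H2-K1, and 0.53 ± 0.199 between H2-K1 and Tapbp (log2, SD, n = 6). It was 1.31 ± 0.156 between Tapbp and Tap2, 1.25 ± 0.156 between Tap2 and Tap1, and 3.99 ± 0.734 between Tap1 and H2-Ab1. Smaller steps separated H2-Ab1 from Cd74 (0.54 ± 0.466) and H2-Eb1 from H2-Aa (0.90 ± 0.528), both on few counts and on a scale that the added 0.1 compresses. Cd74 and H2-Eb1 did not differ beyond their spread, at 0.19 ± 0.666 with Cd74 higher in 3 of 6 cultures (exact permutation p = 0.875, adjusted p = 0.875). The order follows from the data, so these tests describe how firmly neighbours were separated. It also depends on the lengths used. H2-D1 has a combined exon length of 1736 bases and H2-K1 of 2454, whereas their transcripts searched for shared windows had 2102 and 1619. Before division by length, H2-K1 was above H2-D1 in culture 6, at 151 against 145 CPM. H2-Ab1 and Cd74 had 6 counts each in culture 3, and 6 and 7 counts in culture 6. Their order in those cultures rests on the lengths used, 1193 and 1415 bases. The order of H2-D1 and H2-K1, and that of H2-Ab1 and Cd74, is therefore not firm. In cultures 2 and 5, H2-Eb1 was above H2-Aa by 1 count against 0.

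Spread between the cultures was tested per gene against counting noise with a chi-square test over all 14998 filtered genes, with Benjamini-Hochberg adjustment. A pass does not tell differences between the cultures from those of library preparation, which included PCR without molecular identifiers. All 6 class I members passed an adjusted p of 0.05, where 76.3% of all tested genes did, so the count is not a result about the members. The adjusted chi-square p ran from 1.63e-108 for H2-K1 to 4.92e-12 for Tap1. No class II member passed the filter on low counts, so 0 of the 4 were tested there. With the filter removed, H2-Ab1 (adjusted p = 0.0424) and H2-Eb1 (adjusted p = 0.0117) passed the chi-square test, and Cd74 (adjusted p = 0.192) and H2-Aa (adjusted p = 0.615) did not. In that fit 50.2% of 26854 genes passed, so 2 of 4 is the background share.

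The size of the spread separated the light chain from the rest of the class I group. The coefficient of variation of TMM-scaled CPM over the 6 cultures (TMM, the trimmed mean of M-values, adjusts library sizes) was 5.02% for B2m, lower than in all but 8.99% of the tested genes. It was 12.9% for H2-D1, 18.0% for Tap2, 19.2% for Tap1, 20.3% for H2-K1 and 21.7% for Tapbp. The median of the 6 was 18.6%, beside 12.1% over all tested genes. The coefficient includes counting noise, which is larger at low counts, and the tested genes were not matched for level.

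All 6 class I members had their highest CPM in culture 6, where 12.5% of the tested genes had theirs. The margin was small for H2-D1 (144.7 against 143.9 CPM in culture 3). It was also small for Tap2 (39.4 against 38.3 CPM in culture 2) and Tapbp (114.3 against 112.9 CPM in culture 2). With TMM-scaled library sizes 5 of 6 did, and Tapbp was marginally higher in culture 2. The 6 genes are correlated across cultures, so they are not 6 independent cases. The lowest value fell in culture 5 for H2-K1, Tap2 and Tapbp and in culture 1 for H2-D1, B2m and Tap1. Culture 5 was the lowest for 26.2% of all tested genes and culture 1 for 23.8%. Culture 5 also had the highest sums of fibroblast, endothelial and macrophage markers and the lowest sums of glial and neuron markers; their part in the class I values was not tested.

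**Figure D3:**
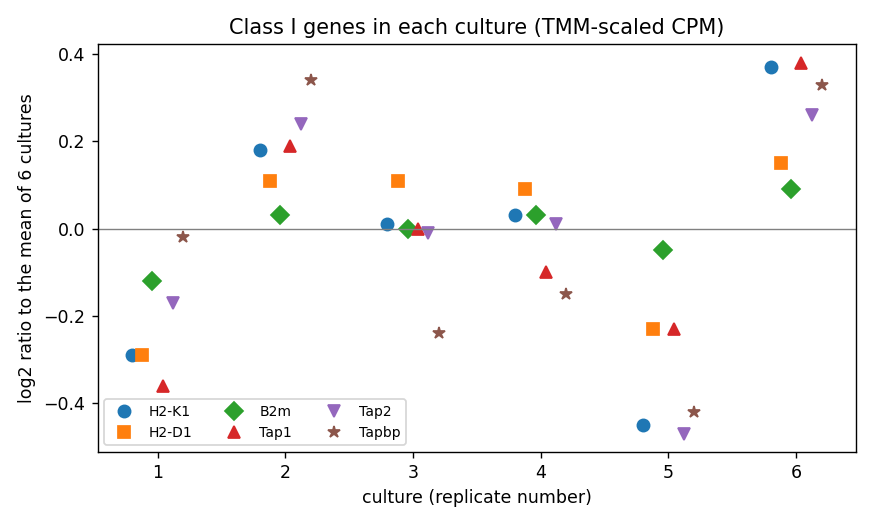
TMM-scaled CPM of the 6 class I genes in each culture, as the log2 ratio to the mean of the 6 cultures; each symbol is 1 gene in 1 culture. H2-K1 runs from -0.45 in culture 5 to 0.37 in culture 6, whereas B2m stays between -0.12 and 0.09.

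Across cultures, 8 relations were computed on log2(TMM-scaled CPM + 0.1), with exact permutation over the 720 pairings and adjustment over the 8. H2-K1 rose and fell with H2-D1 (Pearson's r = 0.91, exact permutation p = 0.0139, adjusted p = 0.0481; Spearman's rho = 0.89, p = 0.0333, adjusted p = 0.0889). With B2m, r was 0.88 (exact permutation p = 0.0181, adjusted p = 0.0481) and rho 0.89 (p = 0.0333, adjusted p = 0.0889). With Tap1, r was 0.92 (exact permutation p = 0.0139, adjusted p = 0.0481) and rho 0.89 (p = 0.0333, adjusted p = 0.0889). Without cultures 5 and 6, which were farthest from the median of H2-K1, r was 0.93, 0.94 and 0.97. With library totals in place of TMM scaling, r was 0.89, 0.79 and 0.92 and none passed the adjustment. With any 1 culture left out, r stayed between 0.87 and 0.94, 0.80 and 0.96, and 0.86 and 0.98. None passed the adjustment in these runs either (adjusted permutation p from 0.0667 to 0.217 over library totals and the runs without 1 culture). The calls of these relations therefore depend on the scaling and on keeping all 6 cultures. H2-D1 transcripts share 6.94% of the 50-base windows of H2-K1, and the part of that overlap in their relation was not tested. Over all 15 pairs of class I members, r ran from 0.49 for H2-D1 with Tapbp to 0.97 for H2-K1 with Tap2.

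The other 5 relations did not pass. H2-K1 with Cd74, the 1 relation that joined the classes, gave r = -0.09 and rho = -0.26 (exact permutation p = 0.858 and 0.658, adjusted p = 0.858 and 0.658), and r = -0.02 without cultures 5 and 6. Cd74 with Csf1r, which encodes the receptor that sustains macrophages, gave r = 0.72 and rho = 0.77 (exact permutation p = 0.126 and 0.103, adjusted p = 0.253 and 0.206). Without cultures 1 and 2, the farthest from the median of Cd74, r was -0.12, so that relation rests on those cultures. H2-Aa with Cd74 gave r = 0.52 and rho = 0.44 (exact permutation p = 0.300 and 0.400, adjusted p = 0.480 and 0.640), from 2 counts of H2-Aa; without cultures 3 and 6, which hold them, no r could be computed. H2-K1 with Csf1r gave r = -0.24 and rho = -0.37 (exact permutation p = 0.613 and 0.497, adjusted p = 0.700 and 0.658). H2-K1 with the fibroblast collagen Col3a1 gave r = -0.28 and rho = -0.26 (exact permutation p = 0.600 and 0.658, adjusted p = 0.700 and 0.658). Without cultures 5 and 6 these last r values turned to 0.45 and 0.80. Since no batch is named in the labels, there are no values within batches.

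By likeness over the 6 cultures, searched among 11927 genes with a mean of at least 5 CPM, the genes closest to H2-K1 were Ncam1, Angpt2, B4gat1, Ddah1 and Gm12892. Their correlations with it lay between 0.989 and 0.996. Ncam1, an adhesion molecule of neurons and glia, averaged 509 CPM. The genes closest to Cd74 were Rhobtb2, Ugp2, Ell2, Smpd3 and Smarca2, at 0.979 to 0.993, and that ranking rests on the 28 counts of Cd74. These are the extremes of a large search over 6 points and carry no test.

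The remaining class I pathway was present. All 5 genes of the immunoproteasome and its activator varied beyond counting noise, as did 76.3% of all tested genes. The immunoproteasome subunits, interferon-inducible proteases that shape class I peptides, averaged 15.2 ± 3.68 CPM per kb for Psmb10, 10.4 ± 2.21 for Psmb8 and 1.73 ± 0.491 for Psmb9 (SD, n = 6). The activator genes Psme2 and Psme1 averaged 47.4 ± 3.78 and 38.0 ± 3.70 CPM per kb. Psmb10 had 15.0, 23.1, 18.8, 20.5, 13.0 and 25.3 CPM in cultures 1 to 6. Its high cultures, 2 and 6, and its low cultures, 1 and 5, are those of H2-K1. Psmb8 and Psme1 shared them. Psme2 shared the low cultures but had 49.8 CPM in culture 4 against 48.0 in culture 2. Psmb9 did not follow, with its highest value in culture 4 (2.34 CPM) and its lowest in culture 1 (1.00 CPM).

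Peptide loading draws on general chaperones of the endoplasmic reticulum as well, and these were abundant. All 5 genes of this list varied beyond counting noise, against a background of 76.3%. Calr, which encodes calreticulin, averaged 359.8 ± 53.9 CPM per kb, Pdia3, an oxidoreductase of the loading complex, 267 ± 22.7, and Canx, which encodes calnexin, 137 ± 5.86 (SD, n = 6). These 3 genes had their highest value in culture 5, where H2-K1 was lowest. Erap1, the peptidase that trims class I peptides, averaged 10.2 ± 1.61 CPM per kb and was lowest in culture 5. Tapbpl, which encodes the tapasin relative TAPBPR, averaged 3.78 ± 0.508 CPM per kb.

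Of 15 other class I heavy chains, 11 passed the filter and 5 of those varied beyond counting noise, a smaller share than the 76.3% of all tested genes. The filtered genes not called had from 108 (H2-Q10) to 938 (H2-T10) counts over the 6 cultures, though H2-M3 was called on 319. At low counts the test detects less, so the smaller share does not show steadier levels. The highest per length was H2-Q4, a Q-region heavy chain, at 15.9 ± 5.19 CPM per kb (SD, n = 6). It had 20.01, 31.0, 34.0, 30.5, 15.1 and 40.4 CPM in cultures 1 to 6, with the extremes in cultures 5 and 6 as for H2-K1. Mr1, which presents microbial vitamin metabolites to T cells, averaged 12.5 ± 1.29 CPM per kb and H2-T22 10.5 ± 0.948. H2-T23, which encodes Qa-1, a ligand of NK cell receptors, averaged 6.64 ± 1.80 CPM per kb and was highest in culture 5 at 12.9 CPM. H2-T3 and H2-M2 had 0 counts in all 6 cultures, which allows up to 0.131 to 0.149 CPM depending on the library. Several of these genes share sequence, and H2-T22 and H2-T23 were fractional in all 6 cultures.

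Among genes that serve class II molecules, the lysosomal enzymes had higher levels per length than the dedicated class II components. The list held 9 genes, of which 4 passed the filter, and all 4 varied beyond counting noise, beside 76.3% of all tested genes. Lgmn, which encodes the protease legumain, averaged 121 ± 13.7 CPM per kb (SD, n = 6). Ctss, which encodes cathepsin S, the protease that degrades the invariant chain, averaged 23.1 ± 17.4, and Ifi30, a lysosomal thiol reductase, 12.3 ± 3.76. Ctss had 6.31, 8.29, 44.9, 56.2, 64.8 and 19.7 CPM in cultures 1 to 6. Its high values fell in cultures 3, 4 and 5, which also had the highest sums of macrophage markers.

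The peptide exchange factor H2-DM is made of an alpha and a beta chain. Its alpha chain gene H2-DMa averaged 6.86 ± 0.913 CPM, on 110 to 174 counts per culture. Per length, H2-DMa averaged 0.824 ± 0.110 CPM per kb and H2-DMb1 0.774 ± 0.383, with H2-DMb2 at 0.0800 ± 0.0336 (SD, n = 6). Without division by length H2-DMb1 averaged 0.993 ± 0.492 CPM, well below H2-DMa. The similar values of H2-DMa and H2-DMb1 per length therefore rest on the combined exon lengths used. H2-DMb1 had 0.392, 0.433, 1.02, 1.44, 1.55 and 1.12 CPM, lowest in cultures 1 and 2 as H2-Ab1 and Cd74 were. H2-DMa did not share that order, with 7.58, 7.20, 6.32, 7.17, 5.25 and 7.62 CPM and its lowest value in culture 5, and H2-DMb2 was lowest in culture 3. H2-Oa and H2-Ob, which encode the inhibitor of H2-DM found in B cells, had 0 counts in all 6 cultures. H2-Ea, the alpha chain of I-E, also had 0 counts in all 6. The C57BL/6 strain carries an H2-Ea promoter deletion that prevents its transcription.

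Most macrophage markers exceeded the class II members in level. Csf1r had 3.35, 6.15, 28.0, 26.6, 39.6 and 8.61 CPM in cultures 1 to 6, and all 14 macrophage markers were counted. Per length and over all cultures, Csf1r was 30.8 times as abundant as Cd74 (95% counting interval 21.3 to 46.5) and the complement gene C1qb 96.0 times (66.3 to 145). Ptprc, which encodes the CD45 antigen of all leukocytes, was 3.98 times as abundant as Cd74 (2.72 to 6.06). Each of the 3 exceeded Cd74 in 6 of 6 cultures. Against H2-Ab1 the ratio of Ptprc was smaller, 2.24 (1.63 to 3.15), and Ptprc was the higher in 5 of 6 cultures. The lowest macrophage marker per length, Aif1, which encodes the calcium-binding protein IBA1, had 46 counts in all and 0.351 ± 0.288 CPM per kb (SD, n = 6), a level near that of H2-Ab1. These intervals pool the reads of all cultures and do not cover the spread of the ratios between cultures. Csf1r had 77 counts in culture 1, 829 in culture 5 and 180 in culture 6, where Cd74 had 2, 8 and 7. The dendritic cell markers Clec9a, Cd209a and Siglech had 0 counts in every culture and Xcr1 at most 0.33 of a count, while Zbtb46 averaged 8.21 CPM and Itgax 2.77 CPM.

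**Figure D4:**
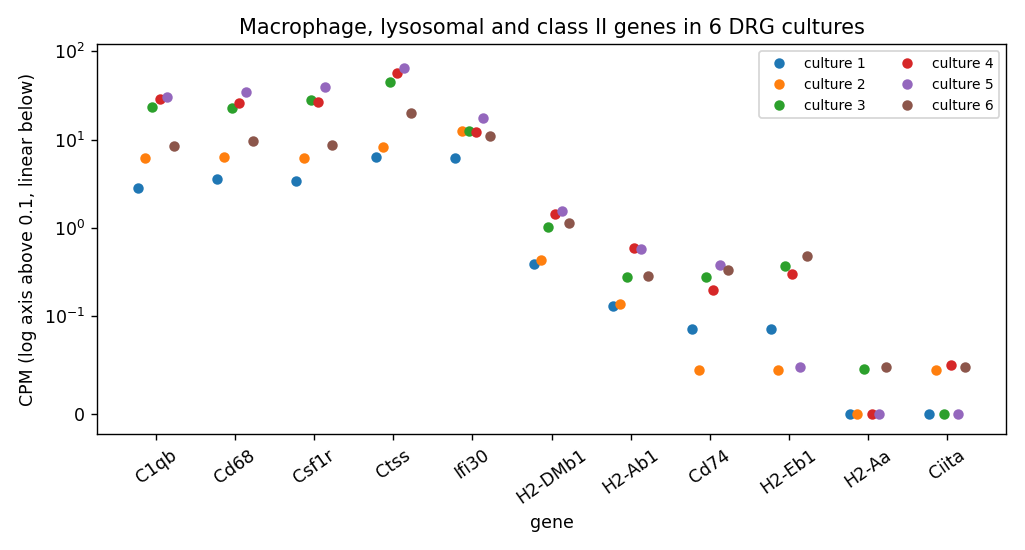
CPM of macrophage genes (C1qb, Cd68, Csf1r), lysosomal enzymes (Ctss, Ifi30), H2-DMb1, the 4 class II members and Ciita in each culture, on an axis that is logarithmic above 0.1 and linear below. C1qb, Cd68 and Csf1r lie above 1 CPM in every culture, and the class II members lie below 1 CPM. Of the macrophage markers not shown, Aif1 was below 1 CPM in every culture. Ptprc, Mrc1 and Spi1 were below it in culture 1. Values are not divided by length.

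Costimulatory genes, whose products give T cells their second signal, differed among themselves. Of 5 genes, 2 passed the filter and both varied beyond counting noise, where 76.3% of all tested genes did. Cd80 averaged 17.4 ± 16.6 CPM (SD, n = 6) and ran from 1.70 CPM in culture 1 to 47.6 in culture 5. Its relative Cd86 averaged 0.263 ± 0.214 CPM and Cd40 0.365 ± 0.278 CPM. Cd274, which encodes the inhibitory ligand PD-L1, averaged 2.46 ± 0.982 CPM. Fibroblast, endothelial and macrophage markers were also lowest in culture 1 and highest in culture 5, as Cd80 was; their part in its spread was not tested.

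Among the regulators, Nlrc5 was counted in every culture and Ciita hardly at all. Ciita had 0, 1, 0, 1, 0 and 1 counts in cultures 1 to 6. Nlrc5 had 64, 83, 88, 76, 51 and 106 counts, or 3.65 ± 0.942 CPM (SD, n = 6), with its lowest value in culture 5 and its highest in culture 6, as H2-K1 had. Per length and over all cultures Nlrc5 was 193 times as abundant as Ciita, with a 95% counting interval from 65.7 to 939.9 because Ciita had 3 counts. That interval does not cover the spread between cultures. The highest of this list per length was Rela, an NF-kappaB subunit, at 44.4 ± 3.62 CPM per kb. Genes for factors that bind the X and Y boxes were counted in every culture. The RFX subunit gene Rfxank averaged 9.97 ± 0.676 CPM per kb, Rfxap 4.79 ± 0.361 and Rfx5 1.78 ± 0.161, and Nfya, a subunit of the Y box factor, 15.5 ± 1.43. Of 12 regulators, 11 passed the filter and 10 of those varied beyond counting noise, beside 76.3% of all tested genes. Their median coefficient of variation was 8.31%, below the 12.1% of all tested genes, which were not matched for level.

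None of the 4 interferon genes examined was counted. Ifng, Ifnb1, Ifna4 and Ifnl3 had 0 counts in all 6 cultures, while the receptor genes were present at 30.6 ± 5.47 CPM per kb for Ifngr2, 22.96 ± 3.33 for Ifngr1, 20.3 ± 1.16 for Ifnar2 and 16.8 ± 0.735 for Ifnar1 (SD, n = 6). Genes known to be induced by interferon were counted nonetheless. The list of 20 summed to 347, 408, 437, 454, 367 and 566 CPM in cultures 1 to 6. Of these 20, 15 passed the filter and all 15 varied beyond counting noise, beside 76.3% of all tested genes. Their median coefficient of variation was 24.2%, beside 12.1% for all tested genes, which were not matched for level.

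Per length, the highest of the 20 was Gbp2, a guanylate-binding protein, at 23.6 ± 2.67 CPM per kb, and the lowest was Cxcl9, a chemokine induced by interferon gamma, at 0.181 ± 0.197 (SD, n = 6). Culture 6 had the highest CPM for 12 of the 15 filtered genes, where 12.5% of all tested genes had theirs. The class I members were also highest there, 6 of 6 by CPM and 5 of 6 with TMM-scaled library sizes. Ifit1, an RNA-binding antiviral protein, had 3.64, 6.33, 6.32, 10.6, 10.9 and 22.7 CPM in cultures 1 to 6. Cxcl10, a chemokine for activated T cells, had 16.1, 27.0, 18.2, 22.8, 7.79 and 37.7 CPM. Culture 5 was lowest for Cxcl10 and next to highest for Ifit1, so the list did not move as a block. Irf1, a transcription factor that binds the ISRE of class I promoters, had 26.8, 29.3, 32.3, 34.98, 21.6 and 36.2 CPM, with its extremes in cultures 5 and 6.

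**Figure D5:**
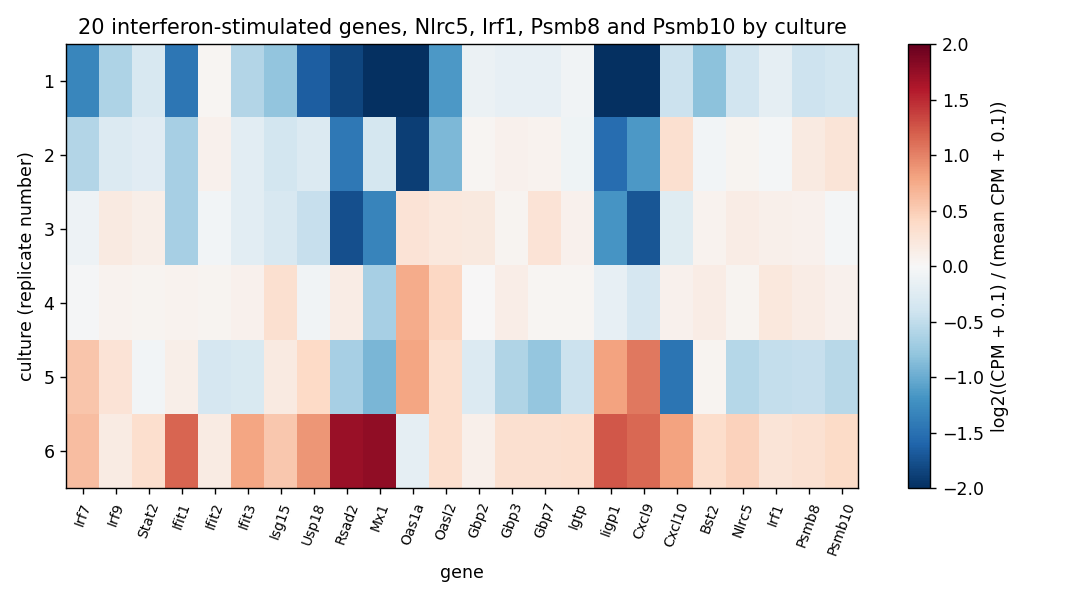
The 20 interferon-stimulated genes, Nlrc5, Irf1, Psmb8 and Psmb10 in each culture (rows), coloured by log2 of CPM + 0.1 over mean CPM + 0.1, red above and blue below the gene's mean and limited to 2 in either direction. In culture 6 each of these genes except Oas1a is above its mean, including Ifit1 at 22.7 CPM.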

How the data were processed

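The authors deposited a table of estimated counts per gene, with no scaling; 13.4% to 14.7% of its values per library were fractional. Poly-A stranded libraries were made from 500 ng of RNA with 15 PCR cycles, and RNA integrity numbers were at least 8.7, per the labels' protocols. The submitters' processing notes name bcl2fastq 2.20.0.422, cutadapt 2.5, STAR 2.7.2b, featureCounts 1.6.4 and GRCm38.p6. The strand setting and the treatment of multi-matching reads were not given in the sources used here. Depth ran from 20070639 to 22968642 counts.

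CPM and CPM per kb were computed from the deposited values. Counts were rounded for edgeR 4.0.16 (R 4.3.3), whose filterByExpr kept 14998 genes and whose TMM factors lay between 0.976 and 1.02. The chi-square test (5 degrees of freedom) compared 6 counts with expected counts proportional to scaled library sizes. With 1 group, no edgeR contrast was possible. On simulated data with 14922 genes tested, it recovered 91 of 100 genes changed 1.5-fold and 99 of 100 changed 3-fold, with 8 other calls. Sign-flip and pairing permutations used Python 3.11.15. Alternatives were library totals, DESeq2 1.42.0 size factors, no filter, unrounded counts, other pseudocounts and leaving out cultures. A floor of 3 counts stood for what a count of 0 allows.

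The members and lists were chosen with earlier results of these data known. Named genes were the members, genes of the lists whose role is explained, including the highest and lowest per length of each pathway list, and the 5 genes most like Cd74 and H2-K1.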

Additional observations from a re-analysis of the deposited data

Results flagged for a closer look

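Among 79 genes examined, 6 had a culture that stood apart from the other 5, by a gap to its nearest neighbour divided by the range of the 6 values above Dixon's 95% critical value. Chance flags about 1 gene in 20, or 3.95 of 79, and genes of a pathway are not independent. No MHC member examined was among them; H2-Aa, with at most 1 count in a culture, was not examined. Culture 6 stood above the others in 3 interferon-stimulated genes. Mx1, an antiviral GTPase, had 1.94 CPM there and 0.364 in the next culture (ratio 0.831), on 40.5 counts. Rsad2, which encodes viperin, had 5.69 against 1.84 CPM (0.726), and Ifit3 had 68.4 against 42.0 CPM (0.626). Culture 5 stood above the others for Calr, at 897 against 711 CPM (0.636), and for H2-DMb2, at 0.263 against 0.149 CPM (0.665), on 5.5 counts. Culture 1 stood below the others for Ifnar2, at 57.5 against 64.3 CPM (0.641).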

How the results depend on the processing

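The number of members varying beyond counting noise was 6 of 6 tested under every scaling, with unrounded counts and without any 1 culture, and 8 of 10 with no filter on low counts, where 13488 of 26854 genes (50.2%) varied. Over all genes, 11444 of 14998 (76.3%) varied, and 10098 without culture 5. Of 9 neighbouring pairs, 8 kept 1 order in every culture with a pseudocount of 1 or TMM scaling, 6 with no division by length, and 7 to 8 without any 1 culture. The relations of H2-K1 with H2-D1, B2m and Tap1 kept their sign but lost their call with library totals (r = 0.89, 0.79 and 0.92) and without any 1 culture, where r lay between 0.87 and 0.94, 0.80 and 0.96, and 0.86 and 0.98; adjusted permutation p-values of these alternatives lay between 0.0667 and 0.217. Signs turned without culture 5 for H2-K1 with Cd74 (r = 0.42), Csf1r (0.23) and Col3a1 (0.51), and without culture 2 for H2-K1 with Cd74 (0.23); leaving out each culture gave r from -0.50 to 0.42, -0.81 to 0.23 and -0.91 to 0.51 for these relations. The cause was not tested. Mean levels of the 10 members moved by less than 1 SD in every alternative run, but that of H2-Aa, 0.0139 CPM per kb with an SD above its mean, fell to 0.00848 without culture 3 and 0.00818 without culture 6. No paired analysis was possible because all 6 cultures form 1 group. Depth limits the class II members, with at most 12 counts in any culture.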
